A study of Mus musculus with 20 samples.

Results

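The report covers 9 genes of the RUNX transcription factor system of the mouse: the factors Runx1, Runx2 and Runx3, their shared partner Cbfb, the ETO-family corepressors Cbfa2t2 and Cbfa2t3, and the Groucho-family corepressors Tle1, Tle3 and Tle4. They were chosen by symbol from the 49997 genes counted in each of 2 tables, and all 9 passed the filter on low counts in every fit. Polyadenylated RNA had been sequenced from sorted, cultured bone marrow cells in 6 groups of 3 libraries, first the Runx2 homozygous knockout (hom), the Runx2 heterozygous knockout (het) and the Runx2 wild type (WT) of stem cells, then the same genotypes of progenitors. The stem cell groups (HSC) were sorted as CD201+CD150+ and the progenitor groups (HPC) as CD201-CD150-, and cells of both kinds were cKit+Sca1+Lineage-. The series describes Runx2-flox mice or CRISPR knockout, and which of them made a given library, the Cre driver, the deleted exons, the age of the animals and the time in culture are not given in the labels. Nor do they say whether replicates were separate animals or cultures, so p-values reflect library-to-library spread only, and that spread may be technical.

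RUNX proteins bind DNA through the Runt domain, and each of them needs the non-DNA-binding subunit CBFB for stable binding and protection from degradation. RUNX1 is required for the emergence of blood stem cells and for platelet and lymphoid development, RUNX2 is best known as the master factor of bone formation, and RUNX3 acts in T cells and dendritic cells. The same RUNX protein can activate or repress a gene, and repression runs through corepressors: the Groucho proteins TLE1, TLE3 and TLE4 bind the conserved end of RUNX proteins, while the ETO proteins CBFA2T2 and CBFA2T3 recruit histone deacetylases to several factors of blood cells and are relatives of the fusion partner of RUNX1 in leukaemia.

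The RUNX genes share a feature of sequence that their choice did not use. The promoter windows of RefSeq (build GRCm38.p6, 250 bases before to 50 after an annotated start) held 13 windows for the 9 genes, and they were searched on both strands for the RUNX motif TGTGGT, read ACCACA on the other strand, and for its variant TGCGGT, read ACCGCA. The upstream window of Runx1, the single window of Runx2 and the upstream window of Runx3 each carried 2 copies of ACCACA that start 8 bases apart. They are shown because the pair is the same in all 3 genes, in 30 bases each, 5′ to 3′ in the direction of the gene, with every motif match in capitals:
Runx1 (chr16:92826025-92826054, minus strand): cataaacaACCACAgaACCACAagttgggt
Runx2 (chr17:44814583-44814612, minus strand): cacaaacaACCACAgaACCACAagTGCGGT
Runx3 (chr4:135120503-135120532, plus strand): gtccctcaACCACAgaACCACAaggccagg
The 14 bases of the pair were identical in the 3 genes, and over all 30 bases Runx1 and Runx2 shared 27, Runx1 and Runx3 19, and Runx2 and Runx3 21. The pair began 28 bases downstream of the annotated start in Runx1 and 23 bases downstream in Runx2, and 134 bases upstream of it in Runx3. Runx2 had a further copy of the motif 80 bases upstream of its start and the variant 39 bases downstream. Of all 32851 promoter windows 16.8% held the motif, 6.45% the variant and 1.81% at least 2 copies of the motif. Only 7 windows (0.0213%) held 2 copies on 1 strand with this spacing, a spacing chosen after these windows had been read, and the other 4 belonged to Gm12236, Gm15462, Gm16225 and Olfr24. The downstream windows of Runx1 and Runx3 and all windows of Cbfb, Cbfa2t2, Tle1, Tle3 and Tle4 held neither form, and Cbfa2t3 held the variant once, 124 bases upstream of its upstream start. A match describes letters in a window and is not a measured binding site. The CUT&Tag samples of the series, made with antibodies to RUNX2 and to H3K4me3, were not analysed here.

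**Figure D1:**
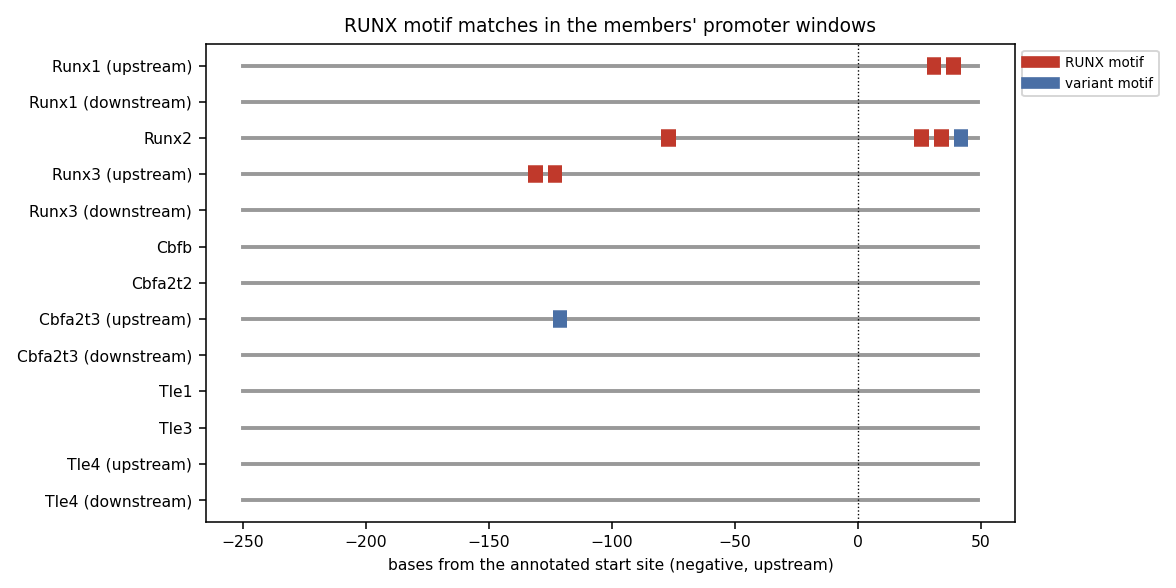
Matches of the RUNX motif and of its variant in the 13 promoter windows of the 9 genes; the horizontal axis is the distance in bases from the annotated start site (dotted line), and each grey bar is a window from 250 bases upstream to 50 downstream. Paired matches stand in the upstream windows of Runx1 and Runx3 and in the window of Runx2, and no other window has a pair.

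The 18 libraries held 16663497 to 27061457 counts, and the lowest count of any member in any library was 410, for Tle1. Levels are given as CPM, depth-scaled counts with the TMM factors of the cell type's own fit, and a gene is called when its edgeR adjusted p was under 0.05 over all genes tested (14959 in HSC, 13855 in HPC). On the common scale of the fit of all 18 libraries, which is used for the sort markers here, transcripts stood where the labels put them for Kit (412 to 599 CPM over the 18 libraries) and for Procr, which encodes CD201 (35.2 to 62.5 CPM in HSC libraries and 4.78 to 7.66 CPM in HPC libraries). Slamf1, which encodes CD150, was at 15.7 to 20.6 CPM in HSC libraries and at 3.19 to 12.9 CPM in HPC libraries. Ly6a, which encodes Sca1, had 0 counts in every library, so the Sca1 gate could not be checked. On the same scale the Y-linked Ddx3y was at 113 to 157 CPM in HSC libraries and at 0 counts in HPC libraries, so cell type, count table and donor sex cannot be told apart.

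Runx2 had the largest log2 change of the members in hom of both cell types and in HSC het, and its level checks the labels. In HPC het the change of Tle3, given further on, was larger in size. In HSC, Runx2 was at 27.5, 30.4 and 26.7 CPM in hom, at 90.0, 96.0 and 87.6 CPM in het, and at 126, 133 and 130 CPM in WT libraries. In HPC it was at 21.9, 20.9 and 23.04 CPM in hom, at 98.7, 100.3 and 92.0 CPM in het, and at 112, 120.1 and 119.5 CPM in WT libraries. The 3 genotypes did not overlap in either cell type, and no hom library was near 0. The gene count sums all exons of the gene (chromosome 17, 44495987 to 44814797, minus strand, mm10), so transcripts that lack a deleted exon still count. Het libraries stayed closer to WT than to hom: the het mean had moved 38.1% of the way from WT to hom in HSC (33.4% to 41.7% over the het libraries) and 21.2% in HPC (17.8% to 26.5%), where the midpoint would be 50%. The midpoint lay at 79.1 CPM in HSC and 69.6 CPM in HPC, and all 6 het libraries were above it. Against WT, het Runx2 was lower by log2 -0.51 ± 0.07 (SE) in HSC and by -0.27 ± 0.06 in HPC (edgeR adjusted p = 0.0167 and 0.00392). The call in HSC het was lost, at adjusted p up to 0.17, without any 1 of HSC het replicates 1 and 3 and HSC WT replicates 1, 2 and 3. The het effect in HSC minus that in HPC was -0.25 ± 0.09 on the log2 scale, which did not pass over all genes tested by edgeR (adjusted p = 0.196).

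**Figure D2:**
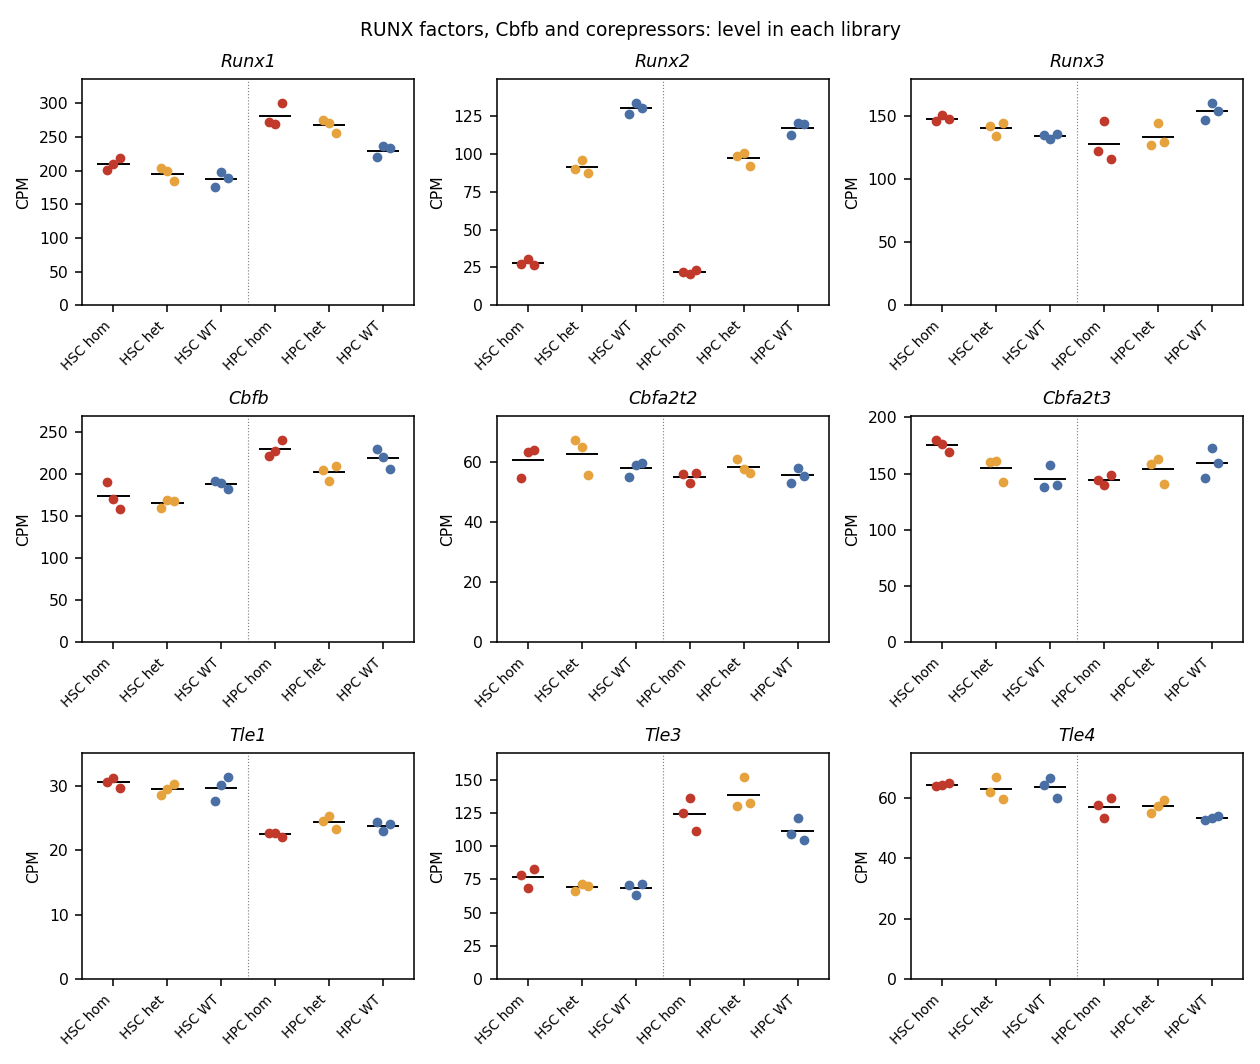
Level of each member in each library, in CPM on a linear axis from 0; points are libraries (hom red, het orange, WT blue; HSC left and HPC right of the dotted line) and bars are means of 3. Runx2 separates into 3 levels in both cell types. The other 8 genes change less than Runx2 in hom and in HSC het, while in HPC het Tle3 changes more than Runx2. CPM were scaled within each cell type.

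Of the other 8 members, none was called in HSC and 3 were called in HPC in at least 1 genotype: Runx1 and Tle3 higher, and Runx3 lower. Hom against WT called 1 member in HSC, Runx2, where 2.01% of all genes tested were called, and 3 members in HPC, where 9.21% were called. Het against WT called 1 member in HSC (background 0.0334%) and 3 in HPC (background 16.1%), and hom against het called Runx2 alone in HSC (background 0.0134%) and in HPC (background 9.4%). Each of these counts includes Runx2, and without it 2 members were called in HPC hom and 2 in HPC het against WT. With Runx2 left out, the members' log2 fold changes ran from -0.11 to 0.27 in HSC hom and from -0.18 to 0.11 in HSC het against WT, and no 95% interval was wider than ± 0.20. In HPC they ran from -0.26 to 0.29 in hom and from -0.20 to 0.31 in het, with intervals of at most ± 0.17. The median over the 9 members lay between -0.01 and 0.07 in these 4 comparisons, and the median over all genes between -0.00 and 0.01. The het and hom comparisons of a cell type share their WT libraries.

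**Figure D3:**
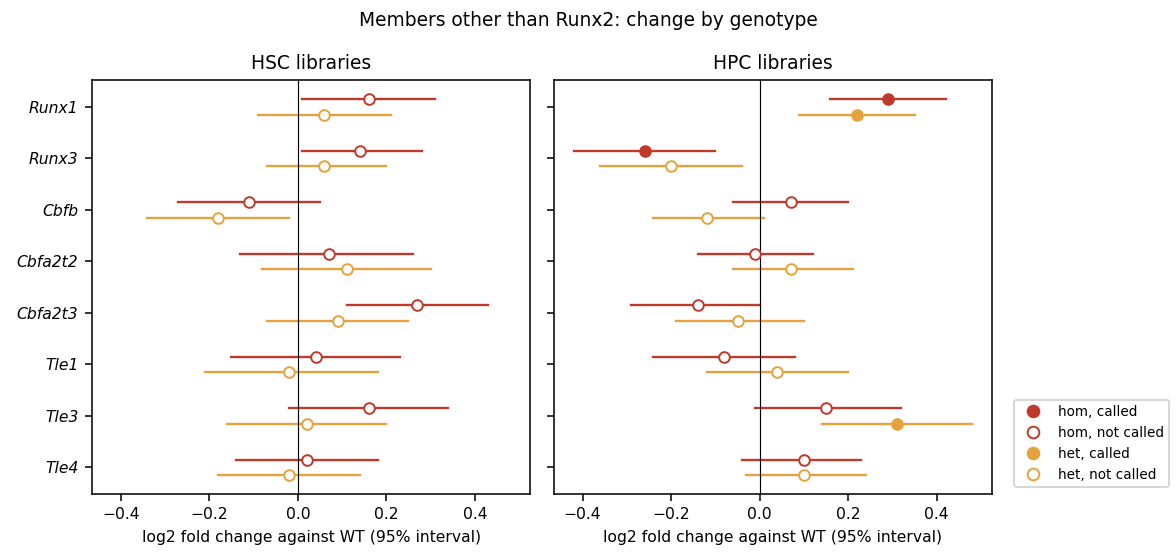
Log2 fold change of hom (red) and het (orange) against WT for the 8 members other than Runx2, with 95% intervals from edgeR; HSC left, HPC right; filled points were called at an adjusted p under 0.05. The called points are Runx1 in HPC hom and het, Runx3 in HPC hom and Tle3 in HPC het.

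Runx1 encodes the RUNX factor on which definitive blood formation depends. In HPC, Runx1 (chromosome 16, 92601466 to 92826074, minus strand, mm10) was at 273, 269.9 and 300.3 CPM in hom, at 276, 270.3 and 255 CPM in het, and at 219.7, 236 and 233 CPM in WT libraries. Every hom and het library was above every WT library, and hom and het overlapped each other. Runx1 rose by log2 0.29 ± 0.06 in hom (edgeR adjusted p = 0.00421) and by 0.22 ± 0.06 in het (adjusted p = 0.0206). The hom call held in all 12 alternatives, with adjusted p at most 0.0232. The het call was lost without HPC het replicate 1 or 2 or HPC WT replicate 1 (adjusted p at most 0.0877). In HSC, Runx1 was at 201, 209.6 and 219 CPM in hom, at 203, 199 and 184 CPM in het, and at 175, 198 and 189.6 CPM in WT libraries. The HSC hom libraries were all above the WT libraries, by log2 0.16 ± 0.07, which was not called (edgeR adjusted p = 0.242), and het overlapped both. The hom effect on Runx1 did not differ between the cell types beyond its error (HSC minus HPC -0.15 ± 0.09, 95% interval -0.34 to 0.04, edgeR adjusted p = 0.398).

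Myeloid marker genes were also called higher in HPC. Of all genes tested, 9.21% were called in HPC hom, 16.1% in HPC het and 2.01% in HSC hom. In HPC hom against WT all 5 neutrophil markers tested (S100a8, S100a9, Mpo, Elane and Ctsg) and all 5 monocyte markers (Ly6c2, Csf1r, Ccr2, Lyz2 and F13a1) were called higher, and Ly6g was at 0 counts in hom and WT. In HPC het 3 of the 5 neutrophil and all 5 monocyte markers were called higher. As CPM of the library totals without TMM factors, the summed level of the neutrophil list was 2290 to 2330 CPM in hom, 1640 to 2040 CPM in het and 1420 to 1470 CPM in WT libraries, and that of the monocyte list 527 to 590, 495 to 505 and 263 to 301 CPM in the same order. The T cell markers Lck and Thy1 were called lower in both genotypes, with a summed level of the list of 11.3 to 16.6 CPM in hom, 14.5 to 16.7 CPM in het and 33.7 to 37.9 CPM in WT libraries, and Cd3e was at 0 counts in every library. Of the 4 megakaryocyte markers 1 was called lower in HPC hom and 3 in het, and the summed level was 291 to 432, 226 to 289 and 442 to 509 CPM in hom, het and WT libraries. Of the other lists, 1 of 3 erythroid and 2 of 4 mast cell markers were called higher in HPC hom and 1 mast cell marker lower, and the 1 B cell marker tested, Cd79b, was not called there. In HPC het 1 of 3 erythroid markers (Epor) was called lower and 0 higher, 1 mast cell marker was called higher and 1 lower, and Cd79b was called higher (log2 0.48 ± 0.11). The osteoblast and stroma markers summed to at most 2.17 CPM in any library. Genes of surface markers also moved in HPC. Of the genes of the sort, Slamf1 was called lower in hom (log2 -0.68 ± 0.18) and het (-1.58 ± 0.19), and Kit higher in het (0.38 ± 0.07). Flt3 and Cd48 are not named in the sort. Flt3 was called higher in hom (0.49 ± 0.08) and het (1.00 ± 0.08), and Cd48 higher in hom (0.37 ± 0.08). On the common scale Flt3 was at 242 to 293 CPM in HPC hom, 368 to 389 CPM in het and 172 to 214 CPM in WT libraries. In HSC hom the marker calls were Thy1 and Ccr2, lower, and the surface genes Cd48 (log2 0.34) and Flt3 (0.32), higher. The part of these markers and of the cells they mark in the levels of the members was not tested, and in bulk RNA fewer cells of a type and less RNA per cell cannot be told apart.

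Runx3, which in T cells helps to silence Cd4, was called lower in HPC hom and in no other comparison with WT. In HPC, Runx3 (chromosome 4, 135120645 to 135177990, plus strand, mm10) was at 122, 146 and 116 CPM in hom, at 127, 144 and 129 CPM in het, and at 147, 160.0 and 154 CPM in WT libraries. All hom and het libraries were below all WT libraries, but HPC hom replicate 2 missed the lowest WT library by less than 1 CPM. Runx3 fell by log2 -0.26 ± 0.08 in hom (edgeR adjusted p = 0.0406), and its het value of -0.20 ± 0.08 was not called (adjusted p = 0.0903). The hom call was lost without HPC hom replicate 1 or 3 or HPC WT replicate 2 or 3, with adjusted p up to 0.17. The het value was called without the filter on low counts and with het and WT fitted alone (adjusted p = 0.022 and 0.0295). In HSC, Runx3 was at 145, 150.4 and 147 CPM in hom, at 142, 134 and 144 CPM in het, and at 134, 131 and 136 CPM in WT libraries. All HSC hom libraries were above all het and WT libraries, by log2 0.14 ± 0.06 against WT, which was not called (edgeR adjusted p = 0.243). The annotation places a copy of Runx3 on an alternate contig of chromosome 4, and how reads were shared out between the copies is unknown, so its absolute level is uncertain.

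Counts divided by gene length allow the 3 RUNX genes to be added. With the lengths in the files, the summed RUNX level of HSC was 49.1 ± 1.36 CPM per kb in hom, 53.6 ± 1.33 in het and 56.4 ± 1.80 in WT (SD, n = 3). In HPC it was 55.7 ± 1.63 in hom, 63.2 ± 2.45 in het and 62.9 ± 2.46 in WT. Hom libraries were below WT and het libraries in both cell types without overlap, and het overlapped WT (exact two-sided permutation p = 0.1 for hom against WT, the smallest that 3 against 3 can give). The hom sum was thus 87.1% of the WT sum in HSC and 88.5% in HPC. Because Runx2 is part of the sum, a fall of Runx2 alone lowers the sum and raises the shares of Runx1 and Runx3, so the shares show the makeup of the sum and no change of Runx1 or Runx3. The share of Runx2 in the sum was 6.72% in hom, 19.9% in het and 26.99% in WT libraries of HSC, and 4.61%, 17.9% and 21.8% in those of HPC. Runx1 made 58.0% of the sum in HSC hom, 49.4% in het and 45.1% in WT, and 68.4%, 57.3% and 49.6% in HPC. Runx3 made 35.3% in HSC hom, 30.7% in het and 27.9% in WT, and 27%, 24.8% and 28.6% in HPC. These shares depend on the length used for Runx3. The file gives 8524 bases, which adds the copy on the alternate contig, while the exons on chromosome 4 alone span 4390 bases. With 4390 bases, a choice made after seeing the data, Runx3 made 51.5% of the sum in HSC hom, 46.2% in het and 42.9% in WT, and 41.7%, 39.0% and 43.8% in HPC, and the share of Runx2 in WT libraries was 21.4% in HSC and 17.2% in HPC. The hom sum remained below the WT sum without overlap in HSC (65.4 against 71.1 CPM per kb) and in HPC (69.8 against 79.8 CPM per kb).

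**Figure D4:**
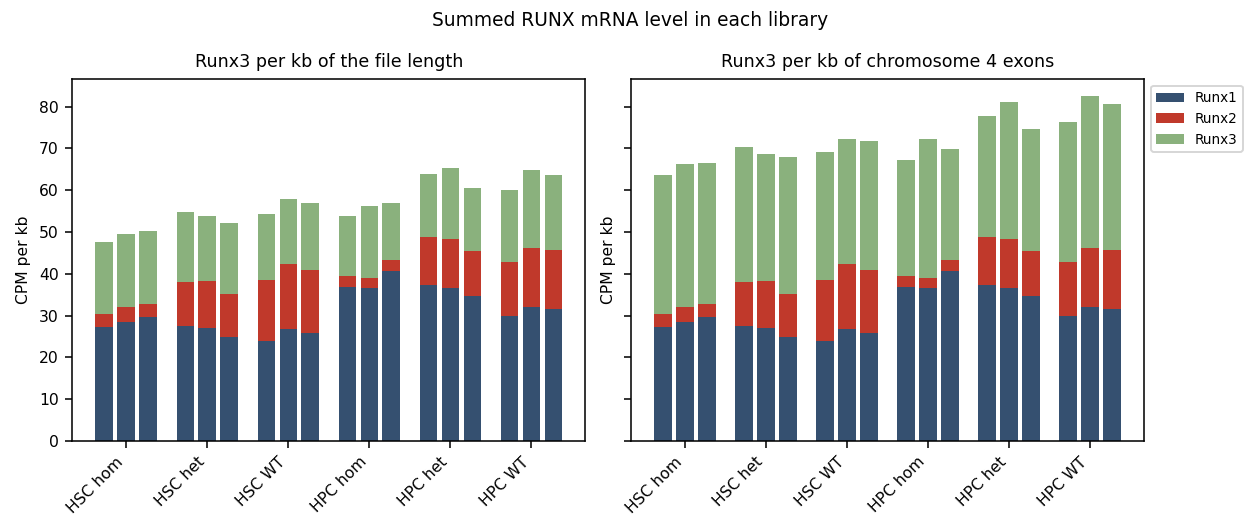
Summed level of Runx1, Runx2 and Runx3 in each library in CPM per kb on an axis from 0; each bar is 1 library, and groups run hom, het, WT for HSC and then HPC. The left panel divides Runx3 by the length in the files and the right panel by its chromosome 4 exons; in both panels the red Runx2 segment is thinnest in hom and the bars of hom are the lowest of their cell type.

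Cbfb, the obligate partner of all RUNX factors (chromosome 8, 105170674 to 105217989, plus strand, mm10), had the highest level per kb of the 9 genes. In HSC, Cbfb was at 191, 171 and 158 CPM in hom, at 159.6, 169 and 167 CPM in het, and at 191, 189 and 182 CPM in WT libraries. The het libraries were all below the WT libraries, and hom spread over both. The log2 values against WT, -0.11 ± 0.07 in hom and -0.18 ± 0.07 in het, were not called (edgeR adjusted p = 0.436 and 0.31). In HPC, Cbfb was at 221, 227 and 240.1 CPM in hom, at 204, 192 and 209 CPM in het, and at 229.8, 220.0 and 205 CPM in WT libraries. HPC hom was above HPC het without overlap (log2 0.19 ± 0.06, edgeR adjusted p = 0.0637), and DESeq2 called this difference (adjusted p = 0.0336). Per kb, the RUNX sum was 0.832 times the Cbfb level in HSC hom, 0.947 times in het and 0.877 times in WT libraries. The HSC genotypes overlapped in this ratio. In HPC the ratio was 0.707 in hom, 0.916 in het and 0.841 in WT libraries. HPC hom lay below het and WT without overlap (exact two-sided permutation p = 0.1, the smallest possible). Because Runx2 is part of the sum, a fall of Runx2 alone lowers the ratio. With the chromosome 4 length of Runx3 the ratio was 0.887 in HPC hom, 1.13 in het and 1.07 in WT. In HSC it was then 1.11 in hom, 1.22 in het and 1.11 in WT, with het above WT without overlap. The mean ratio of HPC hom was below 1 with both lengths, and in the other groups whether it exceeds 1 depends on that length.

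Of the ETO corepressors, Cbfa2t3 differed between the cell types in its response to the hom genotype, and Cbfa2t2 was called in no comparison. Cbfa2t3, also called ETO2, restrains differentiation genes in stem cells and erythroid cells as part of the TAL1 complex. In HSC, Cbfa2t3 (chromosome 8, 122625136 to 122699332, minus strand, mm10) was at 179.9, 177 and 169.6 CPM in hom, at 160.5, 161 and 142 CPM in het, and at 138, 157 and 140.1 CPM in WT libraries. All HSC hom libraries were above all het and WT libraries, by log2 0.27 ± 0.07 against WT, which was not called by edgeR (adjusted p = 0.076) and was called by DESeq2 (adjusted p = 0.0325). In HPC it was at 144, 139.5 and 149 CPM in hom, at 159, 163 and 140.4 CPM in het, and at 146, 172 and 159.5 CPM in WT libraries. The HPC groups overlapped, and the hom value of -0.14 ± 0.07 was not called (edgeR adjusted p = 0.236). In the annotation 4.95% of its exon bases overlap Gm10612, and reads there may be counted for neither gene. Cbfa2t2, also called MTGR1, a corepressor of stem and germ cells (chromosome 2, 154436098 to 154539356, plus strand, mm10), ranged over 53.0 to 67.2 CPM in the 18 libraries and its groups overlapped in all comparisons with WT. Per kb, Cbfa2t2 and Cbfa2t3 together were at 25.6 ± 0.472 CPM in HSC hom and 22.4 ± 1.23 in HSC WT (SD, n = 3), without overlap (exact two-sided permutation p = 0.1, the smallest possible). HSC het overlapped HSC WT in this sum. In HPC the sum was lower in hom than in WT (21.85 against 23.36 CPM per kb), with overlap. It contains the Cbfa2t3 values above and is no separate evidence.

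The hom effects on Runx3 and on Cbfa2t3 differed between HSC and HPC in the fit of all 18 libraries. For Runx3 the log2 effect in HSC minus that in HPC was 0.38 ± 0.10 (95% interval 0.17 to 0.60, edgeR adjusted p = 0.0488), and for Cbfa2t3 it was 0.39 ± 0.10 (0.18 to 0.61, adjusted p = 0.0405). These were the 2 members called, against 2.79% of all genes. For both genes the log2 value was positive in HSC hom and negative in HPC hom. Leaving out single libraries in turn ended each call in 9 of 12 fits, with adjusted p up to 0.129 for Runx3 and 0.13 for Cbfa2t3 and with the difference staying between 0.33 and 0.49. For the het effect 0 members were called by edgeR or by DESeq2 (background 1.94%), and 3 had an unadjusted edgeR p under 0.05 where 12.9% of all genes did: Runx2, Runx3 (0.26 ± 0.10) and Tle3 (-0.29 ± 0.12).

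Of the Groucho corepressors none was called in HSC, and Tle3 was called higher in HPC het. TLE proteins have no DNA-binding domain and are brought to genes by RUNX, TCF/LEF, HES and other factors. In HPC, Tle3 (chromosome 9, 61372326 to 61418497, plus strand, mm10) was at 125, 136 and 112 CPM in hom, at 130.2, 152 and 132 CPM in het, and at 109, 121 and 104 CPM in WT libraries. All het libraries were above all WT libraries, and hom overlapped both. Tle3 rose by log2 0.31 ± 0.08 in het (edgeR adjusted p = 0.0128), and the hom value of 0.15 ± 0.08 was not called (adjusted p = 0.279). The het call was lost without HPC het replicate 2 or HPC WT replicate 1 or 3 (adjusted p at most 0.0936). In HSC, Tle3 was at 78.3, 68.7 and 83.1 CPM in hom, at 66.6, 71.7 and 70.1 CPM in het, and at 71.0, 63.0 and 71.5 CPM in WT libraries, and the groups overlapped. Tle4 (chromosome 19, 14448072 to 14598183, minus strand, mm10) ranged over 59.7 to 66.9 CPM in HSC and 52.5 to 59.9 CPM in HPC libraries. All HPC het libraries of Tle4 were above all WT libraries, by log2 0.10 ± 0.06, which was not called (edgeR adjusted p = 0.319). Tle1 (chromosome 4, 72109945 to 72200989, minus strand, mm10) ranged over 27.7 to 31.3 CPM in HSC and 22.01 to 25.3 CPM in HPC libraries. Its HPC hom libraries were all below het and WT, by log2 -0.08 ± 0.08 against WT, which was not called (adjusted p = 0.591).

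Counted by whether the libraries of the groups overlapped, 4 of the 9 members stood apart from WT in HSC hom and 2 in HSC het, where 24.5% and 23% of all genes tested did. In HPC 4 stood apart from WT in hom and 5 in het, where 26.4% and 33.9% of all genes did. Each of these counts includes Runx2, whose fall is set by the genotype. The others were Runx1, Runx3 and Cbfa2t3 in HSC hom and Cbfb alone in HSC het. In HPC they were Runx1, Runx3 and Tle1 in hom, and Runx1, Runx3, Tle3 and Tle4 in het.

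Without any knockout, HSC and HPC differed in 5 of the 9 members, all lower in HSC, where 54.9% of all genes were called and 27.2% were called lower. The comparison used 1 scale for all 18 libraries. On it Tle3 was at 66.6, 59.3 and 67.0 CPM in HSC WT, against 118, 129.6 and 112 CPM in HPC WT, a log2 difference of -0.90 ± 0.09 (edgeR adjusted p = 1.24e-08). Runx1 was at 165, 186 and 178 CPM in HSC WT, against 238, 252 and 250.3 CPM in HPC WT (log2 -0.49 ± 0.06). Cbfb was lower in HSC WT by -0.42 ± 0.07, Runx3 by -0.39 ± 0.07 and Cbfa2t3 by -0.33 ± 0.07. Each of these 5 calls held in all 12 alternatives. The HSC WT libraries were below the HPC WT libraries without overlap for these 5 genes and for Cbfa2t2, where the groups did not overlap, in either direction, for 64.5% of all genes. Beside this, as CPM of the library totals, the neutrophil list summed to 19.7 to 36.5 CPM in HSC WT and 1420 to 1470 CPM in HPC WT libraries, and its part in these differences was not tested. Runx2 overlapped between the cell types, at 119, 126 and 122 CPM in HSC WT and 121, 128 and 128 CPM in HPC WT (log2 -0.04 ± 0.06, 95% interval -0.17 to 0.08). Cbfa2t2 (-0.13), Tle1 (0.13) and Tle4 (0.06) were not called. The order of the members within a group was taken per kb of the length in the files and on the cell type's own scale, so these levels are not for comparison between HSC and HPC. HSC WT was ordered Cbfb (64.3 CPM per kb), Runx1 (25.4), Runx3 (15.7), Runx2 (15.2), Cbfa2t3 (13.9), Tle3 (13.1), Tle4 (12.5), Cbfa2t2 (8.48) and Tle1 (2.19). From Runx3 to Tle4 each gene overlapped its neighbour in that order. In HPC WT the order was Cbfb (74.9), Runx1 (31.1), Tle3 (21.3), Runx3 (18), Cbfa2t3 (15.2), Runx2 (13.7), Tle4 (10.4), Cbfa2t2 (8.13) and Tle1 (1.75), and Cbfa2t3 and Runx2 overlapped. With its chromosome 4 exons alone, Runx3 would stand above Runx1 in both, at 30.5 CPM per kb in HSC WT and 35.0 in HPC WT.

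Few genes of the enzymes and scaffolds through which the corepressors act were called against WT, too few to set them apart from all genes. The list of the corepressor machinery held 16 genes (NCoR, SIN3, CoREST and histone deacetylases). Of them 1 was called higher in HSC hom, 0 in HSC het, 0 in HPC hom and 1 in HPC het. Of all genes tested 2.01%, 0.0334%, 9.21% and 16.1% were called in the same order. The gene called was in each case Hdac7, a class IIa deacetylase of lymphoid cells. Hdac7 was at 132 ± 12.1 CPM in HSC hom and 106 ± 1.27 in HSC WT (log2 0.32 ± 0.08, edgeR adjusted p = 0.0471), and at 113 ± 4.35 CPM in HPC het and 90.5 ± 6.16 in HPC WT (0.31 ± 0.06, adjusted p = 0.00227). In the comparisons with 0 calls, 3 of the 16 in HSC het and 2 in HPC hom had an unadjusted edgeR p under 0.05, where 13.8% and 21.6% of all genes did, and DESeq2 called 0. The median of the 16 lay between -0.04 and 0.04 in the 4 comparisons with WT, and that of all genes between -0.00 and 0.01. Between HSC WT and HPC WT, 2 of the 16 were called higher and 8 lower in HSC, where 54.9% of all genes were called. Of the coactivators and modifiers of RUNX, the methyltransferase gene Prmt1 was the only 1 of 13 tested that edgeR called in HPC het (log2 -0.30 ± 0.08), and 0 of 13 or 14 were called in the other comparisons with WT, where 1 to 4 had an unadjusted p under 0.05 and DESeq2 called Wwtr1 in HSC hom and no other. Wwtr1 was low, at 0.633 ± 0.542 CPM in HSC hom and 2.14 ± 0.796 in HSC WT. Of the relatives Tle2, Tle5 and Tle6, edgeR called Tle2 in HPC het, at 12.1 ± 1.03 CPM against 7.66 ± 0.947 CPM in HPC WT (log2 0.66 ± 0.12).

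Of the DNA-binding partners of the corepressors, a few were called. Tcf7, which encodes the T cell factor TCF1 that binds Groucho proteins, fell in hom cells of both kinds: it was at 6.48 ± 0.858 CPM in HSC hom and 12.2 ± 2.15 in HSC WT (log2 -0.92 ± 0.17, edgeR adjusted p = 0.0154), and at 2.98 ± 0.952 CPM in HPC hom and 7.93 ± 0.367 in HPC WT (-1.41 ± 0.19, adjusted p = 4.36e-05). It was the only 1 of 7 partners tested that edgeR called in either hom comparison. Of all genes, 2.01% were called in HSC hom and 9.21% in HPC hom. In HPC het, where 16.1% of all genes were called, Hhex (0.22 ± 0.07) and Prdm1 (0.94 ± 0.25) were called higher. In HSC het edgeR called 0 of the 7, and 3 had an unadjusted p under 0.05 where 13.8% of all genes did. DESeq2 called Hes1 lower in HSC het and also in HSC hom, where edgeR did not (log2 -1.72 ± 0.45, edgeR adjusted p = 0.0618). Hes1 was low throughout, at 0.663 ± 0.284 CPM in HSC hom, 0.658 ± 0.353 in HSC het and 2.22 ± 0.447 in HSC WT. Of the TAL1 complex in which Cbfa2t3 works, 2 of 13 genes fell in HPC hom, Gata2 (-0.24 ± 0.07) and Zfpm1 (-0.36 ± 0.10), where 4.29% of all genes were called lower. In HPC het 3 of 13 rose, Lmo2 (0.33 ± 0.06), Tcf4 (0.32 ± 0.05) and Ssbp2 (0.22 ± 0.06), and 3 fell, Gata1 (-1.10 ± 0.24), Gata2 (-0.31 ± 0.07) and Zfpm1 (-0.54 ± 0.10), where 9.15% of all genes were called higher and 6.99% lower. In HSC, where 12 were tested, edgeR and DESeq2 called 0 in hom and 0 in het, and 4 and 3 had an unadjusted p under 0.05 (18.4% and 13.8% of all genes).

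Among textbook target genes of RUNX1, Myh10 moved in the most comparisons. Myh10, a non-muscle myosin that RUNX1 silences as megakaryocytes mature, was at 104 ± 10.8 CPM in HSC hom and 146 ± 6.22 in HSC WT (log2 -0.49 ± 0.08, edgeR adjusted p = 0.0103). In HPC it was at 35.6 ± 3.47 CPM in hom, 41.3 ± 1.34 in het and 84.9 ± 5.36 in WT (-1.25 ± 0.08 in hom and -1.04 ± 0.07 in het). The hom effect in HSC minus that in HPC was 0.74 ± 0.12 (edgeR adjusted p = 0.0011), so the fall was larger in HPC. Of 10 targets tested in HPC hom, Csf1r (0.90 ± 0.08), Mpo (0.64 ± 0.08) and Elane (1.58 ± 0.15) rose beside the fall of Myh10. Csf1r, Mpo and Elane also belong to the myeloid marker lists above. In HPC het, Spi1 (0.24 ± 0.08), Csf1r, Mpo and Elane rose and Myh10 and the platelet factor gene Pf4 (-0.70 ± 0.16) fell. Of all genes, 9.21% were called in HPC hom and 16.1% in HPC het. Of 9 targets tested in HSC hom, edgeR called Myh10 and no other, where 2.01% of all genes were called. There 4 had an unadjusted edgeR p under 0.05 where 18.4% of all genes did: Myh10, Zbtb7b (0.44 ± 0.11, adjusted p = 0.0544), Pf4 (0.33 ± 0.11) and Itgal (0.60 ± 0.23). DESeq2 called Myh10 lower and Zbtb7b higher there. In HSC het edgeR called 0 of the 9, where 2 had an unadjusted p under 0.05 and DESeq2 called 0.

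**Figure D5:**
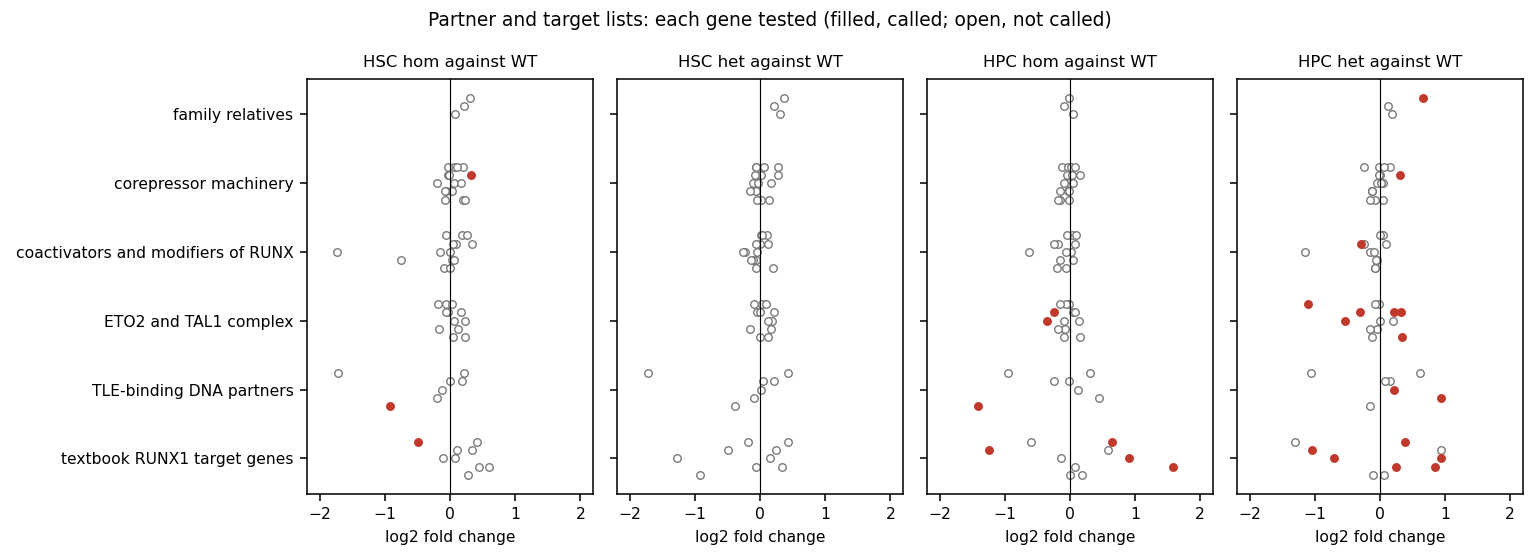
Log2 fold change against WT of every gene tested in 6 lists of RUNX relatives, corepressor machinery, coactivators, partners and targets; each point is 1 gene, red filled points were called by edgeR at an adjusted p under 0.05 and open points were not; columns are HSC hom, HSC het, HPC hom and HPC het. The corepressor machinery stays near 0 in all columns, while the TAL1 complex and the RUNX1 targets of HPC spread to both sides.

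The genes whose response was most like that of Runx2 were ranked by the root mean square difference of 4 log2 fold changes (hom and het against WT in HSC and in HPC) over 10511 genes. They were H2-Eb1 (difference 0.20), Il18r1 (0.33), H2-Aa (0.44), Kcnd3 (0.54) and Dscam (0.63). H2-Eb1, a chain of the MHC class II molecule of antigen-presenting cells, had values of -2.09 in HSC hom, -0.74 in HSC het, -2.67 in HPC hom and -0.11 in HPC het. Il18r1, part of the receptor for interleukin-18, had -1.94, -0.95, -2.38 and -0.68 in the same order. The hom values of H2-Eb1, Il18r1, H2-Aa and Kcnd3 were called in both cell types, and that of Dscam in HPC only (edgeR adjusted p = 1.04e-06 in HPC and 0.135 in HSC). The ranking chose genes by these same fold changes, so low hom values and their calls were built in and are no separate evidence. Of the 10 het values, Il18r1 in HPC was the only 1 called (edgeR adjusted p = 0.00301). Of all genes tested, 2.01% were called in HSC hom, 9.21% in HPC hom, 0.0334% in HSC het and 16.1% in HPC het. H2-Eb1, H2-Aa and Dscam have annotated copies on alternate contigs, so their absolute levels are uncertain. The same holds for Hhex, Lck, Mpo and Pf4, named above, and for the marker sums that contain them.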

How the data were processed

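Polyadenylated RNA of 18 libraries (6 groups of 3) was analysed. Per the submitters' processing notes, the tools were FastQC, Trim Galore 0.6.10, STAR 2.7.11a and featureCounts 2.0.6, with the build mm39. The deposited values are raw counts of read pairs per gene. Per the file headers, featureCounts 2.0.6 made them over mm10 exons without using strand, so reads of a gene and of an antisense partner cannot be told apart. Coordinates are those of mm10 in the files. From these counts edgeR 4.0.16 in R 4.3.3 fitted quasi-likelihood models (robust, TMM factors, filterByExpr, Benjamini-Hochberg adjustment over all genes tested), 1 fit of 9 libraries per cell type and 1 of all 18 for WT HSC against WT HPC and for differences between cell types. The scripts were tested on simulated data. CPM per kb divide CPM by the length in the files. Values after ± are SDs for levels and standard errors for log2 values, and 95% intervals come from the fits. The floor of 3 counts was 0.111 to 0.18 CPM per library and covers counting error only. No 2 libraries were duplicates.

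The members, partner and marker lists were chosen with earlier results of these data known. All 9 members are named, with the marker lists and the 5 genes most like Runx2 among those with a mean of at least 5 CPM in some group. The plan was to name up to 4 called genes of each other list per comparison by p. For hom and het against WT all called genes of the relative, partner and target lists are named, which exceeds 4 for 2 lists in HPC het. DESeq2 1.42.0, RLE size factors, other filters, fits of the compared groups alone, a replicate block, leaving out each library and other gene lengths were alternatives. The labels do not say whether a replicate number pairs libraries. Deviations of same-numbered libraries correlated at -0.13 to 0.14 in HSC and -0.11 to 0.23 in HPC. Those of differently numbered libraries correlated at -0.18 to 0.2 and -0.27 to 0.27, and such wide ranges cannot tell whether the libraries were paired.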

Additional observations from a re-analysis of the deposited data

Results flagged for a closer look

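The hom effects on 2 members differed between the cell types by the test of the difference itself, in the edgeR fit of all 18 libraries. For Runx3 the log2 effect in HSC minus that in HPC was 0.38, and for Cbfa2t3 it was 0.39. In both genes the 3 HSC hom libraries lay above the 3 HSC WT libraries. In HPC hom, Runx3 lay below WT in every library, while the Cbfa2t3 libraries of hom and WT overlapped. Cell type, count table and donor sex cannot be told apart in this comparison.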

How the results depend on the processing

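Of the 17 called values of members, 11 kept their direction and their call in every alternative tried, and none of the 17 changed direction. The 11 were 5 of WT HSC against WT HPC, Runx1 in HPC hom against WT, and Runx2 in all its genotype comparisons but HSC het against WT. No other genotype call kept its place throughout: Runx1 and Tle3 in HPC het, Runx3 in HPC hom and both hom differences were each lost in some alternative. DESeq2 called 2 members in HSC hom against WT, where edgeR called 1, and 2 in HPC hom against het, where edgeR called 1. With only the groups compared in the fit, 1 member was called for the difference of the hom effect in place of 2. Leaving out 1 library gave 0 to 1 members called in HSC het, 1 to 3 in HPC het and 0 to 2 for the difference of the hom effect, and the cause was not tested. Without division by length, Runx2 made 7.31% of the RUNX sum in HSC hom, 21.4% in het and 28.8% in WT, and 5.09%, 19.5% and 23.4% in HPC. With the chromosome 4 length of Runx3, chosen after seeing the data, it made 5.04%, 15.4% and 21.4% in HSC and 3.68%, 14.5% and 17.2% in HPC, since a shorter Runx3 raises the sum.

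Values near 0 that were not called changed sign when 1 library was left out. Their ranges were -0.06 to 0.02 for Tle1, -0.04 to 0.05 for Tle3 and -0.06 to 0.01 for Tle4 in HSC het, -0.01 to 0.08 for Tle1 and -0.02 to 0.05 for Tle4 in HSC hom, and -0.01 to 0.14 for Cbfb and -0.12 to 0.02 for Cbfa2t2 in HSC hom against het. In HPC they were -0.11 to 0.01 for Cbfa2t3 in het, -0.04 to 0.02 for Cbfa2t2 in hom, and -0.16 to 0.01 for Runx3 and -0.04 to 0.04 for Tle4 in hom against het. For the differences between cell types they were -0.02 to 0.11 for Cbfa2t2 (het) and -0.08 to 0.06 for Tle3 (hom), which was 0.01 with at least 1 CPM in 3 libraries.

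The replicate block changed 1 member's call, Runx3 in HPC het (edgeR adjusted p = 0.0279), and whether same-numbered libraries were paired is not known. Over all genes the block called 189 genes in HSC hom in place of 300. Counts over all genes in HSC varied most: 898 genes were called in hom without a filter, 740 by DESeq2, 155 with hom and WT alone and 48 to 638 without 1 library. In HSC het 5 genes were called, against 399 without a filter, 192 by DESeq2, 299 with het and WT alone and 2 to 7 without 1 library. In HSC hom against het it was 2, against 511, 150, 1 and 1 to 408. For the hom difference 431 genes were called, against 738 without a filter, 849 by DESeq2 and 149 to 941 without 1 library, and for the het difference 300, against 592, 513, 514 with only the groups compared and 138 to 292. In HPC, hom against het gave 1303 calls and 701 to 1179 without 1 library.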
